A study of Homo sapiens with 20 samples.

Results

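The tripartite motif (TRIM) genes other than TRIM6, TRIM10, TRIM14, TRIM27, TRIM29, TRIM32, TRIM47 and TRIM58 were followed in HUDEP-2, immortalized human erythroid progenitor cells that derive from cord blood, while they matured from proerythroblasts towards reticulocytes. Of the 67 gene symbols in the transcript tables that consist of TRIM and a number, with or without an L, 59 remained after those 8 had been left out, of 46425 gene symbols in all. They are carried by 428 of the 170322 transcripts. The rule for the choice used names and no measured value. It was set with earlier results of these data known, and the 8 genes left out are those that the study drew.

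TRIM proteins share a RING domain, one or more B-boxes and a coiled coil, and most of them act as E3 ubiquitin ligases, the enzymes that pick the proteins to be tagged with ubiquitin. What follows the coiled coil sorts them into classes. The PRY/SPRY domain binds target proteins and is common among TRIM proteins of antiviral defence, the PHD finger and bromodomain read histone marks, the COS box binds microtubules and NHL repeats bind RNA or protein. In maturing erythroblasts, ubiquitin and the proteasome clear much of the proteome while globin accumulates, and some E3 ligases are induced at late stages.

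All cells were wild type and from a single line. Day 0 cells had been expanded in StemSpan SFEM with EPO, SCF and doxycycline, and dexamethasone per the methods of the study. The other groups were taken after 1 to 8 and 12 days in IMDM-based differentiation medium with EPO, SCF, doxycycline, insulin, heparin, holo-transferrin and human serum, and SCF was withdrawn on day 6 and doxycycline on day 8. The study places basophilic erythroblasts on days 4 to 6, polychromatic erythroblasts on day 8, and orthochromatic erythroblasts and reticulocytes on day 12. Each of the 10 days had 2 libraries of poly(A)-selected RNA, here called A (from the tables of separate days) and B (from the table of all days). The study describes the libraries of days 0 and 8 as biological replicates, and for the other days the kind of replicate is not given in the sources used here, so that p-values measure the spread between these libraries, which may there be technical. Day 0 columns were held in 3 tables for 2 day 0 samples, and which of them are those samples is not given, so that every comparison with day 0 rests on the pair used. In such bulk samples, fewer cells of a type and less RNA per cell cannot be told apart.

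The 20 libraries held between 52131713 and 70358198 counts, and a count of 0 allows up to 3 counts, or between 0.0426 and 0.0575 per 1e6 counts of a library, for counting error only. Ribosomal RNA genes took 17.6% and 16.8% of the counts in library A of days 7 and 8, against 0.737% to 2.68% in the other 18 libraries. The summed level of 9 erythroid marker genes, in TPM (counts scaled for transcript length and library), went from 26491 and 28897 on day 0 to 430895 and 478750 on day 12. HBA1 and HBB are among the 9, and globin genes took 28.2% and 33.7% of all counts on day 12. In the test described below, 5 of the 9 were higher and 2 lower from day 8 to day 12, against 23.8% and 33.4% of all genes. CD3E and MS4A1, markers of T and B cells, had no count in any library. Transcripts that mark other lineages were present on day 0, and whether other cells or the progenitors themselves made them was not tested. The 4 mast cell or basophil markers summed to 1018 TPM in library A and 537 TPM in library B of day 0, against 3.14 and 0.598 TPM on day 8. ITGA2B, a platelet integrin also made by early progenitors, stood at 68.9 and 10.7 TPM on day 0, with PF4 and PPBP at 0 counts, and at 0.292 and 0.14 TPM on day 8. The 5 myeloid markers reached at most 1.52 TPM in sum. The part of these transcripts in the falls from day 0 given below was not tested.

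Most of the family was detected. Of the 59 genes, 43 had enough counts to be tested, 32 had more than 3 counts in every library, 20 reached at least 1 TPM in every library and 3 at least 10 TPM in every library. Of all 46425 gene symbols, 16784 were tested. Among the 43 tested members, 8 never reached 1 TPM in any library. The other 16 of the 59 were not tested, and of these, 12 had no count in any of the 20 libraries: TRIM31, TRIM34, TRIM42, TRIM43, TRIM48, TRIM49, TRIM50, TRIM51, TRIM54, TRIM60, TRIM64 and TRIM77. TRIM17 reached 12 counts in its highest library, TRIM55 reached 11, and TRIM40 and TRIM69 reached 4 each. Of the 28 genes of the PRY/SPRY class, 17 were tested and 9 were at 0 throughout, among them 5 on the long arm of chromosome 11 (TRIM48, TRIM49, TRIM51, TRIM64 and TRIM77). All 4 genes of the PHD-bromodomain class and all 3 of the NHL class were tested.

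The summed level of the 59 genes was 960 ± 33.4 TPM at the start (SD, n = 2) and 1047 ± 58.8 TPM a day later, and it came to 667 ± 96.6 TPM on day 8 and to 216 ± 29.6 TPM on day 12. TRIM28 alone made up 39.2% and 42.1% of that sum in the libraries of day 0, and 27.5% and 36.9% in those of day 12. A change between days can be read on 2 scales. TMM factors set a gene against the bulk of the other genes, whereas TPM is a share of the whole library, of which globin genes took 28.2% and 33.7% on day 12, against 9.85% and 8.49% on day 8. Over all genes with at least 10 counts, the median log2 change from day 8 to day 12 was -0.18 on the TMM scale, -1.01 with library totals in place of TMM factors and -1.42 for log2(TPM + 0.1). From day 0 to day 8 the same medians were -0.02, -0.39 and -0.60. Changes are therefore given on the TMM scale, beside the TPM of each library, and the position of a gene relative to the median of all genes is given where the direction depends on the scale.

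From day 0 to day 8, 15 of the 43 tested genes passed an adjusted p of 0.05 in edgeR's quasi-likelihood test with Benjamini-Hochberg adjustment over 16784 genes, 6 of them higher and 9 lower. Over all genes tested, 37.1% passed, 17.7% higher and 19.4% lower, against 34.9% of the members. The median log2 change of the 36 members with at least 10 counts was -0.06. In each of the 15 genes, the libraries of day 8 and day 0 did not overlap in normalized counts. The same sign of change within libraries A and within libraries B follows from that. These are the counts that gave the calls, so neither adds separate support. The share of all genes without overlap was not computed. The call did not depend on any single library for 7 of the 15: TRIM26, TRIM25 and TRIM65, which fell, and TRIM33, TRIM59, TRIM23 and TRIM52, which rose. Of the calls, 47.5% over all genes were higher on the TMM scale, but 24.5% with library totals and 15.1% for log2(TPM + 1), and for TRIM genes 3 higher and 9 lower calls were shared by TMM and log2(TPM + 1). Relative to the median of all genes, all 15 stayed on their side on the 3 scales. The scales rest on the same counts and differ mainly by a shift common to all genes, so this adds no separate support. Without libraries A of days 7 and 8, which were rich in ribosomal RNA, 4 genes were higher and 5 lower, in a fit with fewer libraries. The share of all genes called in that fit was not computed.

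TRIM26, a PRY/SPRY ligase encoded in the major histocompatibility complex region (chr6:30184453-30213435 in GRCh38.p14), had the largest fall to day 8 among the members above 10 TPM on day 0. It stood at 26.5 TPM in library A and 22.7 TPM in library B on day 0, at 14.2 and 10.9 TPM on day 4, at 8.83 and 6.34 TPM on day 6, at 1.63 and 2.48 TPM on day 8 and at 0.309 and 0.19 TPM on day 12. The fall ran through the whole course, and the libraries of day 0, day 8 and day 12 did not overlap. The log2 change was -3.01 ± 0.32 (SE, adjusted p = 1.63e-05) from day 0 to day 8, and -1.55 ± 0.33 (adjusted p = 0.00111) from there to day 12. When only transcripts with curated RefSeq models were counted, the second change was 1.47 (adjusted p = 0.0357), so that its direction after day 8 differed between the sum of all models and the curated ones. On day 0 the transcript with the largest share was such a predicted model, with 36.4% and 28.9% of the TPM of the gene.

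TRIM25, the ligase that ubiquitinates the RNA sensor RIG-I, had a mean of 41.9 TPM over the 20 libraries, second to TRIM28 and close to TRIM59 with 40.7 TPM, but was below TRIM59 and TRIM33 on day 8. Its single transcript stood at 52.7 and 64.1 TPM on day 0, at 37.1 and 47.8 TPM on day 6 and at 17.4 and 19.8 TPM on day 7. Most of the fall thus lay between days 6 and 7, and day 8 was like day 7, with 16.5 and 21.4 TPM. The log2 change to day 8 was -1.03 ± 0.13 (adjusted p = 7.57e-05). TRIM65, which ubiquitinates the related sensor MDA5, went from 28.8 and 35.0 TPM on day 0 to 13.7 and 24.0 TPM on day 6 and 5.12 and 10.5 TPM on day 8, a log2 change of -1.47 ± 0.27 (adjusted p = 0.00103). With curated transcripts only, that change was -1.25 and not called (adjusted p = 0.157). On day 12 it was at 0.742 and 0.49 TPM. MDA5 itself, encoded by IFIH1, rose to day 8 (log2 0.62, adjusted p = 0.0399) and fell after it (log2 -2.28, adjusted p = 1.96e-06). The gene of RIG-I was not analysed here.

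The other 6 falls to day 8 were smaller or concerned genes of low level, and each lost its call when a library was left out. TRIM5, the capsid-binding factor that restricts retroviruses, went from 17.7 and 15.6 TPM to 3.95 and 8.43 TPM (log2 -0.85 ± 0.28, adjusted p = 0.0295), and the adjusted p was 0.263 without library A of day 8, 0.154 without library A of day 0 and 0.051 without library B of day 0. TRIM35 went from 22.9 and 26.5 TPM to 9.16 and 11.9 TPM (log2 -0.64 ± 0.19, adjusted p = 0.0156), with an adjusted p of 0.086, 0.0989 and 0.0525 without library B of day 0, library A of day 8 and library B of day 8. TRIM62 had 2.38 and 1.38 TPM on day 0 and 0.417 and 0.258 TPM on day 8, and was not called without library A of day 0 (adjusted p = 0.0818) or library B of day 8 (adjusted p = 0.0633). TRIM35 is a ligase linked to pyruvate kinase M2, and TRIM62 one linked to cell polarity.

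The remaining 3 are known from neurons. TRIM3, an NHL protein of the brain, stood at 2.41 and 0.955 TPM on day 0 and 0.225 and 0.228 TPM on day 8, TRIM46, which bundles axonal microtubules, at 0.891 and 1.07 TPM and then 0.102 and 0.0537 TPM. TRIM67, a COS-box protein of the brain, stood at 0.477 and 4.66 TPM on day 0, at 3.1 and 6.56 TPM on day 1 and at 0.0987 and 0.0892 TPM on day 8. The gap between the libraries of day 0 was the largest of any member, 3.16 in log2. Without library B of day 0, the log2 change of TRIM67 was -1.73 (adjusted p = 0.236) in place of -4.06 ± 1.13 (adjusted p = 0.0128), and it was not called without library A (adjusted p = 0.0788) or library B (adjusted p = 0.0755) of day 8 either. TRIM3 was at -1.99 ± 0.67 (adjusted p = 0.032), and at -1.23 (adjusted p = 0.26) without library A of day 0, with an adjusted p of 0.113 and 0.129 without A or B of day 8. TRIM46 was at -3.15 ± 0.96 (adjusted p = 0.0225), with an adjusted p between 0.0564 and 0.108 when any of the 4 libraries was left out.

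TRIM7, a PRY/SPRY protein that binds glycogenin, was among the most abundant members on day 0 and differed between the sets. It was at 54.6 TPM in library A and 30.9 TPM in library B on day 0, at 29.6 and 10.4 TPM on day 6 and at 8.0 and 7.11 TPM on day 8, and library A was the higher on all 10 days. The change to day 8 was not called (log2 -1.87 ± 0.73, adjusted p = 0.0592), although it passed in 9 of the 18 fits with another setting or without a library. By day 12 TRIM7 had 0.0637 TPM in library A and no count in library B (log2 -4.71 ± 0.95, adjusted p = 0.000745 from day 8).

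Among the genes that rose to day 8, TRIM33 is the member best known in this lineage. TRIM33, or TIF1-gamma, is a chromatin reader and transcriptional cofactor of SMAD proteins, and its loss in zebrafish stops erythropoiesis. It stood at 22.6 and 26.1 TPM on day 0, at 36.7 and 31.7 TPM on day 4, and at 33.8 and 45.9 TPM on day 8, a log2 change of 1.30 ± 0.19 (adjusted p = 0.000209). For log2(TPM + 1) the difference was 0.68 and not called (adjusted p = 0.053). Several models shared its reads. The leading transcript of TRIM33 was the same in both libraries on 4 of 10 days, and held 48.6% and 37.2% of its TPM on day 8.

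TRIM59, a membrane-anchored protein of the endoplasmic reticulum with a single transcript, went from 32.7 and 40.9 TPM to 61.2 and 55.3 TPM (log2 1.28 ± 0.29, adjusted p = 0.00373). The difference in log2(TPM + 1) was 0.65 (adjusted p = 0.094). TRIM23, which carries a GTPase domain of the ARF type beside its RING, went from 4.55 and 6.13 TPM to 11.2 and 9.55 TPM (log2 1.58 ± 0.23, adjusted p = 0.000191). TRIM52 went from 5.9 and 6.71 TPM to 9.34 and 11.1 TPM (log2 1.28 ± 0.18, adjusted p = 0.00016). The rises of TRIM23 and TRIM52 passed in every alternative tried. An antisense gene overlaps TRIM52, and the sources used here do not give whether strand was used in counting.

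The other 2 rises were weak. TRIM39, a regulator of the anaphase-promoting complex, was nearly level at 10.9 and 11.5 TPM on day 0 and 9.5 and 9.81 TPM on day 8. Its log2 change of 0.41 ± 0.13 (adjusted p = 0.0259) turned to -0.20 in log2(TPM + 1), and it was not called without library A (adjusted p = 0.115) or library B (adjusted p = 0.0997) of day 0 or library A of day 8 (adjusted p = 0.218). TRIM15 had 0.0374 and 0 TPM on day 0, peaked at 0.633 and 0.333 TPM on day 6 and had 0.251 and 0.289 TPM on day 8 (log2 4.30 ± 1.28, adjusted p = 0.0214). It lost its call without library B of day 0 (adjusted p = 0.123) or library A of day 8 (adjusted p = 0.0622). TRIM15 begins 329 bp from TRIM10, which stood at 2.13 and 3.09 TPM on day 0 and at 65.4 and 115 TPM on day 8, and the part of reads from TRIM10 in the TRIM15 values was not tested.

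By the basophilic stage, days 4 to 6, 7 genes differed from day 0, 2 higher and 5 lower, where 16.6% of all genes tested did, 7.38% higher and 9.22% lower. TRIM33 (log2 0.76 ± 0.16, adjusted p = 0.00597) and TRIM52 (log2 0.58 ± 0.15, adjusted p = 0.0193) were higher. TRIM26 (log2 -1.18 ± 0.23, adjusted p = 0.00314), TRIM16 (log2 -0.98), TRIM3 (log2 -1.72), TRIM46 (log2 -2.06) and TRIM67 (log2 -2.76) were lower. For 6 of the 7 the day groups did not overlap, which fixes the same sign in both library sets. In TRIM67 they overlapped, and the sets agreed in sign. The share of all genes without overlap was not computed here either. No call held without each library in turn. Without library A of day 0, TRIM26 had an adjusted p of 0.0685 and TRIM33 of 0.0974, and TRIM67 had a log2 change of -0.44 without library B of day 0. TRIM52 lost its call without library A (adjusted p = 0.143) or B (adjusted p = 0.129) of day 0, and so did TRIM16 (adjusted p = 0.171 and 0.144) and TRIM46 (adjusted p = 0.18 and 0.204), while TRIM3 was at -0.96 (adjusted p = 0.47) without library A of day 0. Losses without a library of days 4 to 6 concerned TRIM3, TRIM16, TRIM46 and TRIM67, with an adjusted p of at most 0.108. TRIM16, which takes part in the clearance of damaged lysosomes, went from 3.15 and 3.58 TPM on day 0 to 0.943 and 1.09 TPM on day 6. With a term for the library set in the fit, 4 members were higher and 11 lower at this stage. The share of all genes called in that fit was not computed.

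From day 8 to day 12, 30 of the 43 genes passed the test, 14 higher and 16 lower, against 57.2% of all genes tested, 23.8% higher and 33.4% lower. TRIM72, among the 14, could be tested only through its counts on day 12. The libraries of the 2 days did not overlap for any of the 30, which fixes the same sign in both library sets. The share of all genes without overlap was not computed. The split depended on the scale. Of the calls over all genes, 42.3% were higher on the TMM scale, 19.97% with library totals and 13.1% for log2(TPM + 1), and for the TRIM genes the calls were 6 higher and 23 lower with library totals and 3 and 24 for log2(TPM + 1). Relative to the median of all genes, the 14 genes stayed above it on the 3 scales and 14 of the 16 stayed below it, the exceptions being TRIM9 and TRIM46, which had no count on day 12. Here too the scales rest on the same counts, so the agreement adds no separate support. A gene called higher here kept its share of RNA better than the median gene, and need not have gained in TPM.

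TRIM38 and TRIM22 gained on every scale. TRIM38, a PRY/SPRY protein that dampens innate immune signalling, was flat through day 8, between 3.84 and 6.09 TPM in the 18 libraries, and stood at 16.2 and 12.7 TPM on day 12. The log2 change from day 8 was 2.97 ± 0.27 (adjusted p = 6.44e-07), and the difference in log2(TPM + 0.1) was 1.65. One curated transcript led in both libraries on all 10 days. TRIM22, an interferon-induced antiviral ligase, was at most 0.23 TPM up to day 8 and stood at 1.02 and 0.722 TPM on day 12 (log2 4.86 ± 0.91, adjusted p = 0.000415). It lies next to TRIM34 and TRIM5 on chromosome 11.

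Of the other 12 genes called higher, TRIM24, TRIM11, TRIM23 and TRIM5 lay between -0.23 and -0.02 in log2(TPM + 0.1), TRIM16, TRIM39, TRIM8 and TRIM25 were lower on that scale, and TRIM16L, TRIM62, TRIM72 and TRIM73 were higher. TRIM24, or TIF1-alpha, a chromatin reader and cofactor of nuclear receptors, stood at 21.9 and 24.5 TPM on day 8 and at 22.7 and 17.1 TPM on day 12. Its log2 change was 1.24 ± 0.17 (adjusted p = 2.38e-05) on the TMM scale and -0.23 in log2(TPM + 0.1), which is 1.19 above the median of all genes. TRIM11, a ligase of protein quality control, had 19.6 and 15.4 TPM and then 16.8 and 17.6 TPM (log2 1.43 ± 0.26, adjusted p = 0.000305, and -0.02 in log2(TPM + 0.1)). TRIM23 had 11.2 and 9.55 TPM and then 11.5 and 9.09 TPM (log2 1.41 ± 0.23, adjusted p = 0.000125, and -0.02), so that it kept the level it had reached on day 8. TRIM5 had 6.37 and 5.02 TPM on day 12 (log2 1.26 ± 0.28, adjusted p = 0.00178, and -0.03). TRIM39 was higher by 0.81 ± 0.13 (adjusted p = 0.000131) on the TMM scale and lower by TPM, with 7.23 and 5.5 TPM.

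TRIM25 (log2 0.45) and TRIM8 (log2 0.48), which regulates cytokine signalling through SOCS1, were called higher on the TMM scale and lower in log2(TPM + 0.1), at -0.998 and -0.954. TRIM25 had 12.1 and 7.24 TPM on day 12. TRIM8 had 8.44 and 11.4 TPM on day 8 and 6.28 and 3.99 TPM on day 12. Neither call held without library A of day 8 (adjusted p = 0.07 and 0.191) or of day 12 (adjusted p = 0.183 and 0.253), nor that of TRIM8 without library B of day 8 (adjusted p = 0.0804). The pair TRIM16 and TRIM16L, near copies that may share reads, were higher by 1.18 ± 0.37 and 1.39 ± 0.43 on the TMM scale, with an adjusted p of 0.145 and 0.135 without library B of day 8 and of 0.109 and 0.0685 without library B of day 12. TRIM16L had 2.94 and 1.16 TPM on day 8 and 2.28 and 2.22 TPM on day 12. TRIM62 (log2 1.71 ± 0.46, adjusted p = 0.006) was at 0.515 and 0.348 TPM on day 12, and was not called without library B of day 8 (adjusted p = 0.0688).

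2 genes of very low level complete the list of 14. TRIM73, at 0.149 and 0.129 TPM on day 8 and 0.224 and 0.336 TPM on day 12 (log2 2.34 ± 0.92, adjusted p = 0.0421), shares near-identical copies with TRIM74, and was not called when any of the 4 libraries was left out (adjusted p from 0.0587 to 0.244). TRIM72, a membrane repair protein of muscle, had no count in the 18 libraries up to day 8 and 20 and 23 counts on day 12. Its entry into the test thus depended on the day on which it is called higher. The rise was at least 13.1-fold on the TMM scale and 7.22-fold with library totals, for the mean of both libraries against the limit of 3 counts per library. It too lost its call without any 1 of the 4 libraries (adjusted p from 0.0729 to 0.131).

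The 16 genes called lower from day 8 to day 12 held better, since 13 of them kept their call without each library in turn. TRIM37, a ligase needed for normal centriole number, went from 13.4 and 19.98 TPM to 2.01 and 1.22 TPM (log2 -1.92 ± 0.16, adjusted p = 3.45e-07). TRIM21, the cytosolic antibody receptor, was not called to day 8 (log2 0.43 ± 0.30, adjusted p = 0.273), where it had 19.3 and 26.9 TPM, and stood at 2.76 and 1.72 TPM on day 12 (log2 -1.93 ± 0.31, adjusted p = 0.00012). TRIM68 went from 6.79 and 8.72 TPM to 0.803 and 0.55 TPM (log2 -2.07 ± 0.19, adjusted p = 7.66e-07). TRIM35 ended at 1.3 and 0.836 TPM (log2 -1.86 ± 0.19, adjusted p = 2.31e-06). TRIM45, a repressor of MAP kinase signalling, had 2.06 and 3.42 TPM on day 8 and 0.0345 and 0.0735 TPM on day 12 (log2 -3.82 ± 0.47, adjusted p = 1.08e-05).

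TRIM59 lost on day 12 what it had gained, with 11.4 and 4.35 TPM (log2 -1.53 ± 0.29, adjusted p = 0.00045). It was the one member called higher to day 8 and lower after it. TRIM61 fell from 0.76 and 1.07 TPM to 0.0531 and 0 TPM (log2 -3.68 ± 0.67, adjusted p = 0.000347). TRIM44, which has a ubiquitin-binding zinc finger in place of a RING, went from 9.21 and 13.99 TPM to 2.81 and 1.57 TPM (log2 -0.94 ± 0.21, adjusted p = 0.00169), and TRIM56, an antiviral ligase, from 8.34 and 9.36 TPM to 2.07 and 1.27 TPM (log2 -1.04 ± 0.14, adjusted p = 3.21e-05). TRIM65 (log2 -2.15 ± 0.29) and TRIM26 and TRIM7, given above, were the others.

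3 of the genes called lower had no count on day 12. TRIM63, or MuRF1, a ligase of muscle protein breakdown, had 47 and 16 counts on day 8 and was at least 5.69-fold lower on day 12 on the TMM scale, or 3.04-fold from the lower library alone. With library totals the bounds were 9.68-fold and 6.01-fold. TRIM9 had 14 and 6 counts and TRIM46 had 10 and 6, at least 1.81-fold and 1.46-fold lower on the TMM scale, with 1.14-fold for both from the lower library. With library totals these were 3.12-fold and 2.55-fold, and 2.26-fold from the lower library. TRIM9 and TRIM46 were not called without library A of day 8 (adjusted p = 0.0581 and 0.0686), library A of day 12 (adjusted p = 0.0726 and 0.0981) or library B of day 12 (adjusted p = 0.0712 and 0.0952).

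TRIM28, or KAP1, the corepressor that KRAB zinc finger proteins recruit to silence transposable elements, led the family in every library. It stood at 367 and 414 TPM on day 0, at 498 and 559 TPM on day 1, at 376 and 479 TPM on day 6, at 256 and 336 TPM on day 8 and at 65.3 and 72.0 TPM on day 12. Library B was higher than library A on all 10 days. To day 8 the log2 change of 0.18 ± 0.17 was not called (adjusted p = 0.43). The decline after day 8 was -0.62 ± 0.17 (adjusted p = 0.00684) on the TMM scale and -2.09 in log2(TPM + 0.1), and without library A of day 12 it was -0.40 on the TMM scale (adjusted p = 0.0715). Among the 4 PHD-bromodomain genes, TRIM28 thus fell by more than the median gene on day 12, TRIM24 was above it, and TRIM33 (log2 -0.34 ± 0.19, adjusted p = 0.141) and TRIM66 (log2 -0.51 ± 0.25, adjusted p = 0.103) were not called. TRIM33 was at 16.2 and 8.09 TPM on day 12, and TRIM66, mostly a gene of the testis, went from 2.81 and 2.73 TPM to 0.768 and 0.712 TPM.

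The 10 genes listed as partners of TRIM28 in silencing were all tested, with 2 higher and 3 lower on day 8, and 1 higher and 7 lower from day 8 to day 12. Over all genes tested, 17.7% were higher and 19.4% lower in the first step, and 23.8% and 33.4% in the second. The median log2 change of the list was 0.03 and then -0.98, and that of all genes tested was -0.20 in the second step. SETDB1, the histone methyltransferase that TRIM28 brings to its targets, stood at 25.9 and 28.8 TPM on day 0, at 9.01 and 15.4 TPM on day 8 and at 2.85 and 2.2 TPM on day 12. It fell in both steps (log2 -0.58, adjusted p = 0.0495, and log2 -0.83, adjusted p = 0.00544). CBX5, the heterochromatin protein HP1-alpha, rose to day 8 (log2 1.00, adjusted p = 0.0251) and fell after it (log2 -3.62, adjusted p = 1.14e-06), from 38.0 and 73.3 TPM to 2.1 and 1.23 TPM. MORC2, an ATPase of the HUSH pathway, rose after day 8 (log2 1.67, adjusted p = 6.76e-07), with 16.6 and 19.7 TPM and then 20.4 and 25.0 TPM.

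Several members are known as interferon-induced, among them TRIM5, TRIM21, TRIM22, TRIM25, TRIM34 and TRIM38, and the promoter sequences bear on whether such a group shares a feature that the choice by name did not use. RefSeq promoter windows of GRCh38.p14, from 250 bases before to 50 bases after the start, were matched for 46 of the 59 members. The core of the interferon-stimulated response element, GAAA, any 2 bases and GAAA again, was looked for on both strands. It was present in 8 of the 46 members, or 17.4%, against 4.38% of 27305 genes with a window: TRIM2, TRIM5, TRIM16, TRIM21, TRIM26, TRIM34, TRIM44 and TRIM69. Of the genes named above as interferon-induced, TRIM25 and TRIM38 had a window without the core, and TRIM22 had no window. TRIM2, TRIM16, TRIM26, TRIM44 and TRIM69 carry the core and are not among the genes named. The GATA motif AGATAA was in 3 of the 46, or 6.52%, against 12.4% of genes, namely TRIM5, TRIM21 and TRIM39. The windows around the core in 4 of these genes are printed on the strand of the gene, with the core (or overlapping cores) in capitals, because the genes share the motif and differ in course: TRIM21 at chr11:4393663-4393692 (minus strand), TRIM5 at chr11:5685082-5685111 (minus), TRIM34 at chr11:5624901-5624930 (plus) and TRIM26 at chr6:30213578-30213607 (minus).
TRIM21: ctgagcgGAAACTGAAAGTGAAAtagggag
TRIM5: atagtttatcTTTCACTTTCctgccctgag
TRIM34: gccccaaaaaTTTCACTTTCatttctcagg
TRIM26: cgcctgaTTTCAGTTTCCATTTCgctgccc
In TRIM5 the core lies 18 bases before the start and its first base is shared with a GATA match on the other strand. In TRIM21 the 2 overlapping cores begin 17 bases after the start, and in TRIM26 they end 179 bases before it. The same 10-base core, TTTCACTTTC, stands in TRIM5 and TRIM34.

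The 4 genes did not share a course. TRIM26 fell throughout with all models summed, but after day 8 it rose with curated transcripts only (log2 1.47). TRIM5 was lower on day 8, a call that did not hold without each library in turn. From day 8 to day 12, TRIM5 was called higher on the TMM scale (log2 1.26). TRIM21 fell after day 8 and TRIM34 had no count in any library. A list of 24 interferon-stimulated genes outside the family, of which 20 could be tested, had 3 higher and 3 lower to day 8, where 17.7% and 19.4% of all genes were called. After it 6 were higher and 3 lower, beside 23.8% and 33.4% of all genes. Its median log2 change was -0.10 and then -0.13. IFI27 stood at 15.6 and 20.3 TPM on day 8 and at 92.3 and 52.8 TPM on day 12 (log2 3.43, adjusted p = 1.02e-07), ISG15 at 8.2 and 4.03 TPM and then 10.4 and 9.23 TPM (log2 2.07, adjusted p = 0.00271). BST2 fell in both steps (log2 -2.63, adjusted p = 1.4e-06, and log2 -1.79, adjusted p = 5.09e-06).

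Neighbours on a chromosome went different ways. On chromosome 6, TRIM26 fell to day 8 while TRIM15 and TRIM39, the next TRIM genes on either side of it, were called higher. Those rises were weak, and neither call held without each library in turn. By TPM, TRIM39 was lower on day 8, at 9.5 and 9.81, than on day 0, at 10.9 and 11.5. TRIM15 had only 0.251 and 0.289 TPM on day 8, and the part of reads from TRIM10 in these values was not tested. On chromosome 5, TRIM52 was called higher to day 8, TRIM7 was not called, and TRIM41, which lies between them (chr5:181223265-181235808), was not called in any of the 3 comparisons. TRIM41 stood at 37.3 and 33.3 TPM on day 0, at 21.9 and 29.0 TPM on day 8 and at 9.43 and 6.3 TPM on day 12. On chromosome 11, the members TRIM21, TRIM68, TRIM5, TRIM34, TRIM22, TRIM3 and TRIM66 follow each other. From day 8 to day 12, TRIM21 and TRIM68 fell, TRIM34 had no count, TRIM22 rose, and TRIM3 and TRIM66 were not called. TRIM5 was called higher on the TMM scale (log2 1.26). By TPM it went from 3.95 to 6.37 in library A and from 8.43 to 5.02 in library B. TRIM5 extends over TRIM6 and TRIM34 in the RefSeq models, and how reads shared by such genes or by read-through transcripts were divided is not given in the sources used here.

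Over any of the 10 days, 31 of the 43 genes changed by the F test, against 66% of all genes tested. 8 genes were called in neither the step to day 8 nor the step to day 12: TRIM2, TRIM4, TRIM13, TRIM36, TRIM41, TRIM66, TRIM71 and TRIM74. TRIM4 and TRIM13, a ligase of the endoplasmic reticulum, were well expressed among them, at 18.9 and 19.7 TPM and 9.33 and 9.68 TPM on day 0. On day 12 their means were 4.37 and 2.44 TPM. With library totals in edgeR's test, both were called lower from day 8 to day 12 (log2 -0.94, adjusted p = 0.000201, and log2 -0.89, adjusted p = 0.000269). TRIM41, TRIM66 and TRIM74 were called lower on that scale too. TRIM71, an RNA-binding regulator of stem cells, was at most 0.529 TPM and higher in library B on all 10 days. TRIM74 stood at 17.2 and 16.9 TPM on day 0, but spread over 35 transcript models of which none led with more than 20.9% on that day. Of the tested members, TRIM21, TRIM25, TRIM59, TRIM61, TRIM71 and TRIM73 had 1 transcript model each. Members of the wider family under other names were in 1 case called to day 8 (CMYA5, log2 1.72, adjusted p = 0.018) and in 1 case after it (MID1, log2 -3.00, adjusted p = 0.0189), of 4 tested. PML, the organizer of nuclear bodies, was the most abundant of them, at 27.6 and 30.3 TPM on day 0, and was not called in any comparison.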

How the data were processed

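RNA-seq of 20 libraries of HUDEP-2 cells was analysed. Per the labels, the authors used Trimmomatic 0.38 for trimming, HISAT2 2.1.0 for alignment to hg38 and StringTie 2.1.3b for RefSeq transcripts. They deposited whole-number read counts per transcript without normalization. Beside them the authors deposited TPM, scaled for transcript length and library. Of the value columns, 40 were used and 23 were not used here (FPKM, and day 0 columns in excess of the 2 day 0 samples). Of 3 sets of day 0 columns, those of the table of all days and of the table of days 0 to 6 were used, and which sets are the 2 samples is not given. A column names its day and carries no replicate number.

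Counts and TPM were summed by gene symbol. Counts were fitted with edgeR 4.0.16 (filterByExpr, TMM, glmQLFit, glmQLFTest) over all 20 libraries with a coefficient for each day, in place of the exact test named in the study's methods. P-values were adjusted by Benjamini-Hochberg over all 16784 genes tested, and 0.05 was the limit. A standard error is |log2 fold change|/√F. Bounds use a limit of 3 counts per library. Alternatives were DESeq2 1.42.0, limma 3.58.1 on log2(TPM + 1) and log2(TPM + 0.1), other normalizations and filters, curated transcripts only, a term for the library set, and leaving out each library. Library totals without TMM factors were added after the values had been seen. The test was tried on simulated data. The authors' strand setting and division of shared reads are not given in the sources used here. Promoter windows, coordinates and sequences are from RefSeq (GRCh38.p14); 13 members had no window.

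The members, gene lists and comparisons were chosen with earlier results of these data known. Every tested member could be named; library values are given for those called with a log2 change of at least 1, for the most abundant, and for others that a comparison rests on.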

Additional observations from a re-analysis of the deposited data

How the results depend on the processing

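No paired analysis was possible because the deposited columns carry a day and no replicate number that ties libraries of different days. A term for the set of tables a library came from, A or B, was fitted instead. Higher and lower TRIM calls numbered 6 and 9 to day 8, 2 and 5 for days 4 to 6, and 14 and 16 from day 8 to day 12. With limma on log2(TPM + 1) or log2(TPM + 0.1) there were 3 higher calls to day 8, with 18 or 16 lower, 1 higher on days 4 to 6 and 3 higher to day 12. Library totals left 6 higher to day 12. Curated transcripts left 3 lower to day 8 and 1 higher and 1 lower on days 4 to 6. With the term for the set there were 8 and 12 to day 8, 4 and 11 on days 4 to 6, and 14 and 18 to day 12. The fit of only the days compared gave 5 lower to day 8 and 3 lower on days 4 to 6, leaving out libraries A of days 7 and 8 gave 5 lower to day 8, no filter beyond 1 count gave 1 higher on days 4 to 6, and at least 10 counts in every library, which tests fewer genes, gave 10 lower to day 12. Leaving out single libraries gave 4 to 6 higher and 4 to 5 lower to day 8, 0 to 2 and 1 to 5 on days 4 to 6, 8 to 10 and 14 to 16 to day 12, and 27 to 32 over any day. Apart from the scale, the cause was not tested. The share of all genes called was computed for the reported fit only, so that the counts under other settings have no such share beside them.

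Among genes called in the reported fit or under the alternative, directions reversed as follows. To day 8, TRIM39 was at -0.20 and -0.21 in log2(TPM + 1) and log2(TPM + 0.1). To day 12 on those scales, TRIM5 was at -0.0369 and -0.0305, TRIM8 at -0.84 and -0.95, TRIM11 at -0.0167 and -0.017, TRIM16 at -0.28 and -0.41, TRIM23 at -0.0146 and -0.0162, TRIM24 at -0.22 and -0.23, TRIM25 at -0.931 and -0.998, TRIM39 at -0.54 and -0.61, TRIM52 at -1.18 and -1.36, and TRIM74 at -1.23 and -1.42. Library totals gave -0.35 for TRIM8, -0.38 for TRIM25, -0.0124 for TRIM39, -0.73 for TRIM52 and -0.79 for TRIM74. With curated transcripts, TRIM46 was at 0.085 on days 4 to 6, and TRIM26 at 1.47 and TRIM66 at 7.21 to day 12. Genes called in neither could change sign with the scale too, such as TRIM28 to day 8, at 0.18 on the TMM scale and -0.41 in log2(TPM + 0.1). With 2 libraries a day, changes of low genes are loosely fixed.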
